A study of Sus scrofa with 33 samples.

Results

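Prolactin and 4 genes that act with it on the lactotroph, the pituitary cell that makes prolactin, were followed in the pituitary of pigs kept at thermoneutrality (TN) or exposed to heat (heat stress, HS). The 5 genes were PRL, which encodes prolactin, PRLR, the prolactin receptor, DRD2, the dopamine receptor through which the hypothalamus holds prolactin release down, ESR1, oestrogen receptor alpha, and GAL, the peptide galanin. Members were all array probes whose gene name or description carried one of these symbols. There were 14 such probes, 5 for PRL, 3 for PRLR, 5 for ESR1 and 1 for GAL. No probe carried the name DRD2, so that gene was not analysed here. The 14 probes cover 4 genes of 9822 with a symbol in the deposited table, and 13 of them are among the 45667 probes of that table.

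The pigs were castrated growing males of the Large White (LW) breed, the Creole (CR) breed and their F1 cross. RNA of the pituitary, described in the study's methods as its anterior lobe, was hybridised to 33 one-colour arrays, 1 for each animal. There were 5 LW TN, 6 LW HS, 5 CR TN, 6 CR HS, 6 F1 TN and 5 F1 HS arrays. TN pigs were at 24 °C. For HS the sample labels give 30 °C and the series text 32 °C, held for 5 days. Per the study's methods some HS pigs were slaughtered before the full 5 days, and the labels used here do not say which. All pigs entered the climatic room at 11 weeks of age and had 10 days of adaptation before 9 days at TN. Slaughter preceded the heat in TN pigs and followed it in HS pigs, so temperature, slaughter day and age cannot be told apart. The title of the array LW HS 3 names Large White and its breed field names Creole. It was placed by its title. Per the study's methods, the pigs of a breed came from few litters whose members were spread over the pens. The labels used here do not tie arrays to litters, so each pig was treated as independent, and p-values between breeds may be too small.

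In the lactotroph, as background, prolactin is made at a high rate and stored in granules, and dopamine acting on the D2 receptor lowers cyclic AMP and restrains its release. Oestrogen acting through ESR1 raises transcription of PRL and growth of lactotrophs, and galanin is a local peptide that oestrogen induces in these cells in several mammals. PRLR signals through JAK2 and STAT5. ESR1 is also found in other pituitary cells, the gonadotrophs among them.

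Probe sequences show which stretches of the transcripts were read. They are printed 5′ to 3′ as the array design gives them, and each is 60 bases long. The design lists no chromosome position for any of them, and gives a start in the transcript for those named A_72. Of the PRL probes, these 3 start at bases 298, 441 and 623 of the transcript, and O5525 has no listed start.

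PRL A_72_P651239: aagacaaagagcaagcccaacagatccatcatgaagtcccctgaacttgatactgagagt
PRL A_72_P500876: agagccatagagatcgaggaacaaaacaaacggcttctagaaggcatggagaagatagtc
PRL A_72_P594739: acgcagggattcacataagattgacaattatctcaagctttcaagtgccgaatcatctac
PRL O5525: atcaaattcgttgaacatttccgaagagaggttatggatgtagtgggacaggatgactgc

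The ESR1 probes start at bases 357, 1117, 1536 and 1539 of the transcript, and O646 has no listed start. The capitals mark the 57 bases that A_72_P077606 and A_72_P441244 share, so these 2 are nearly 1 measurement.

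ESR1 A_72_P444427: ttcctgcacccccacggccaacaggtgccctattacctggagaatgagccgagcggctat
ESR1 A_72_P491067: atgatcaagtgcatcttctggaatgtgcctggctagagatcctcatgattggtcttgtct
ESR1 A_72_P077606: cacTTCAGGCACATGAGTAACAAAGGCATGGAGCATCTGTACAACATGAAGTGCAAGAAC
ESR1 A_72_P441244: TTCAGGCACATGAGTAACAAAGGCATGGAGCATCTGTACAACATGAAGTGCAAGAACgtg
ESR1 O646: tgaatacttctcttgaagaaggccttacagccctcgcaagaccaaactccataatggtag

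GAL had 1 probe, which starts at base 470. The PRLR probes O5494 and A_72_P077336 have the same sequence in all 60 bases and are therefore repeats of 1 probe.

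GAL A_72_P441424: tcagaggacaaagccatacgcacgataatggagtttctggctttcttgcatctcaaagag
PRLR O5494: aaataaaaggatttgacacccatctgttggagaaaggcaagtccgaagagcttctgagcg

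Which strand of the PRL transcript O5525 reads, and which strand of ESR1 O646 reads, could not be settled from the files. Read by hand, the reverse complement of each resembles a coding strand, and no transcript was at hand to test this. Elsewhere on the array, 948 probes with names beginning with O shared at least 25 bases with an A_72 probe of the same gene on the same strand, and 56 did so on the opposite strand. Whether O5525 and O646 read the transcripts of their genes is therefore not known, and their values are given apart from those of the other probes.

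Arrays were of similar quality. Between 73.5% and 82.2% of the spots of an array were well above background, the median intensity was 131 to 165 and no spot was saturated. Expression is given as log2 of quantile-normalised intensity from the deposited table, and levels of different probes are not set against each other. The reference probe of a gene is its brightest probe by the mean over the 33 arrays. That of PRL, A_72_P027831, ranked 21 of 45667 probes by mean signal, so little of the normalised range lay above it. The probes of AVP and OXT, hormones of the posterior lobe, were also bright on all arrays, with log2 intensities of 16.78 to 17.15 and 15.34 to 15.90. A pair of arrays stood apart. LW TN 2 was the lowest of the 33 for all 3 measured lactotroph markers, PRL, TRHR and POU1F1, and the highest for all 5 endothelial markers. It was also the lowest for GH1, FSHB, TSHB, DIO2, ALDH1A1 and ALAS2, so its low signals were not confined to lactotroph genes, and the highest for POMC, PCSK2, OXT, SLC4A1 and TYROBP. CR TN 1 was the lowest for the gonadotroph genes LHB, CGA and NR5A1, and the highest for S100B, SOX2 and CXCL14, listed for folliculostellate and stem cells, and for HBB and CSF1R. Other genes of those marker lists went the other way on it, ranking from the top 25 of 33 for ALDH1A1, 30 for ALAS2, 27 for PTPRC and 28 for CD3E. With both left out the members called were as many as with all arrays in each comparison.

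PRL itself passed the test neither for heat nor between breeds. On the reference probe the LW TN arrays read 18.88, 18.20, 18.96, 18.94 and 18.88, and the LW HS arrays 18.83 to 18.94 with a median of 18.88. The CR TN arrays read 18.76, 18.94, 18.90, 18.70 and 18.83, and the CR HS arrays 18.85 to 18.98 with a median of 18.92. The F1 TN arrays read 18.78 to 18.97 with a median of 18.93, and the F1 HS arrays 18.91, 18.75, 18.94, 18.96 and 18.88. All 6 groups overlapped, and the 32 arrays other than LW TN 2 lay within a 1.22-fold span. On the other A_72 probes of PRL, which were less bright, those 32 arrays spanned 1.62-fold on A_72_P500876, 1.82-fold on A_72_P651239 and 1.57-fold on A_72_P594739.

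The HS minus TN difference of PRL on this probe was 0.06 log2 units (SE 0.05, 95% interval -0.04 to 0.17, limma adjusted p = 0.759), with 15 of 17 HS arrays above the TN mean of their own breed. That mean is pulled down in LW by 1 array. On the 3 other A_72 probes the difference was 0.07, 0.10 and 0.11, with adjusted p from 0.792 to 0.826. Without LW TN 2 the difference on the reference probe was 0.02 (SE 0.03, adjusted p = 0.948), and on the other 3 it was 0.005 to 0.01. With all arrays the interval corresponds to a fold of 0.971 to 1.12 on the reference probe, and it was wider on the other A_72 probes, at 0.942 to 1.21 on A_72_P500876, 0.924 to 1.27 on A_72_P651239 and 0.940 to 1.18 on A_72_P594739.

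LW TN 2 was lower in PRL than each of the other arrays on all 4 A_72 probes. It read 18.20, 17.64, 17.29 and 17.65, against lowest values of 18.70, 18.35, 18.18 and 18.20 among the other 32 arrays. Set against the median of those 32 arrays, its PRL signal was 1.63-fold lower on the reference probe, 2.41-fold lower on A_72_P500876, 3.08-fold lower on A_72_P651239 and 2.05-fold lower on A_72_P594739. TSHB, the beta subunit of thyrotropin, read 8.55 on this array, where the other LW TN arrays ran from 14.75 to 15.56. It was also low on CR TN 1, at 10.57 against 15.72 to 16.34 on the other CR TN arrays. The part of cell composition in these values was not tested. In whole tissue, fewer cells of a type and less RNA per cell cannot be told apart.

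**Figure D1:**
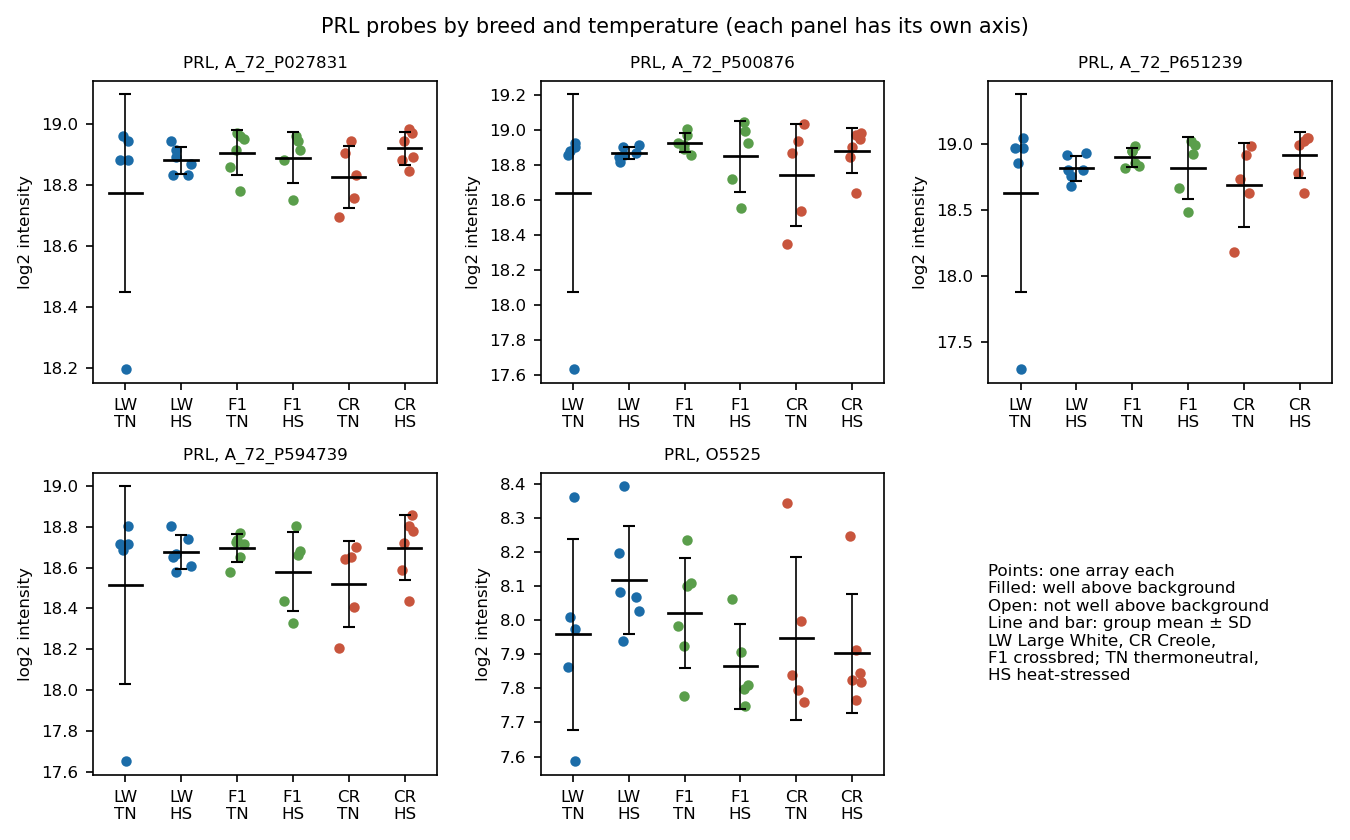
Log2 intensity of the 5 PRL probes (vertical axis, own scale in each panel) in the 6 breed-by-temperature groups (horizontal axis), 1 point for each array with the group mean and SD. The low LW TN point on the 4 A_72 probes is LW TN 2, and it is not low on O5525.

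The 4 A_72 probes of PRL rose and fell together over the 33 arrays, with Pearson r between 0.91 and 0.97. These r include LW TN 2, which lay far below the other arrays on all 4, and r without it was not computed. O5525 did not follow them. It read 7.59 to 8.39, was well above background on all 33 arrays, and on LW TN 2 stood at 8.36, near its top. With the 6 group means removed, its r with the reference probe was -0.53 (Spearman's rho -0.37, permutation p = 0.00141 and 0.0371, adjusted over 7 relations 0.00987 and 0.0866). Leaving out LW TN 2 and LW TN 3, the 2 arrays farthest from the median after that removal, gave r = -0.44. The group means were not recomputed for this, so that of LW TN still held LW TN 2. Removing slide means gave r = -0.62. The HS minus TN difference on O5525 was -0.01 (SE 0.07, adjusted p = 0.974).

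ESR1 was the member whose difference between breeds passed the test. Its mean was lower in Creole than in LW pigs on all 4 A_72 probes and on O646, and the F1 means lay nearer to LW. On the reference probe, A_72_P444427, the LW TN arrays read 10.21, 10.18, 10.02, 10.19 and 10.01, and the LW HS arrays 9.87 to 10.33 with a median of 9.99. The CR TN arrays read 9.46, 9.74, 10.05, 9.49 and 9.76, and the CR HS arrays 9.35 to 9.73 with a median of 9.45. The F1 TN arrays read 9.92 to 10.36 with a median of 10.07, and the F1 HS arrays 10.06, 10.19, 9.76, 9.70 and 10.25. Of the 11 Creole arrays, 10 lay below every LW array and the other, CR TN 3 at 10.05, lay within the LW range. Under HS the LW and Creole arrays did not overlap on this probe or on A_72_P491067, but they did on O646, A_72_P077606 and A_72_P441244. How many of all probes lie apart to this extent was not counted.

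The LW minus CR difference of ESR1 on the reference probe was 0.48 log2 units (SE 0.08, 1.40-fold, 95% interval 1.25 to 1.56, limma adjusted p = 9.19e-05). On A_72_P491067, in which LW ran from 6.95 to 7.51 and Creole from 6.49 to 7.12, it was 0.46 (SE 0.08, 1.37-fold, adjusted p = 0.00022). On A_72_P077606 it was 0.34 (SE 0.09, adjusted p = 0.0233) and on A_72_P441244, which shares most of its bases, 0.29 (SE 0.09, adjusted p = 0.0507). O646 gave 0.44 (SE 0.08, adjusted p = 0.000836). Thus 3 of the 4 A_72 probes of ESR1 passed the threshold of 0.05 in this comparison, and with O646 4 of the 13 member probes did, all higher in LW. Over all probes 6.65% passed, and 3.61% passed with a higher level in LW. With LW TN 2 and CR TN 1 both left out the difference was 0.46 on the reference probe (adjusted p = 0.000398), 0.44 on A_72_P491067, 0.32 on A_72_P077606 (adjusted p = 0.0461), 0.29 on A_72_P441244 and 0.39 on O646.

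The 2 dimmest ESR1 probes were measured near the floor in Creole pigs. A_72_P441244 was well above background on 4 of 11 Creole arrays, 11 of 11 LW arrays and 9 of 11 F1 arrays. A_72_P077606 was so on 7 of 11 Creole arrays and on all LW and F1 arrays. The other 3 ESR1 probes were well above background on all 33 arrays. Over the arrays r between the A_72 probes of ESR1 ran from 0.47 to 0.82, and from 0.15 to 0.62 with group means removed. That of O646 with them ran from 0.46 to 0.68, and from 0.25 to 0.34 with group means removed.

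**Figure D2:**
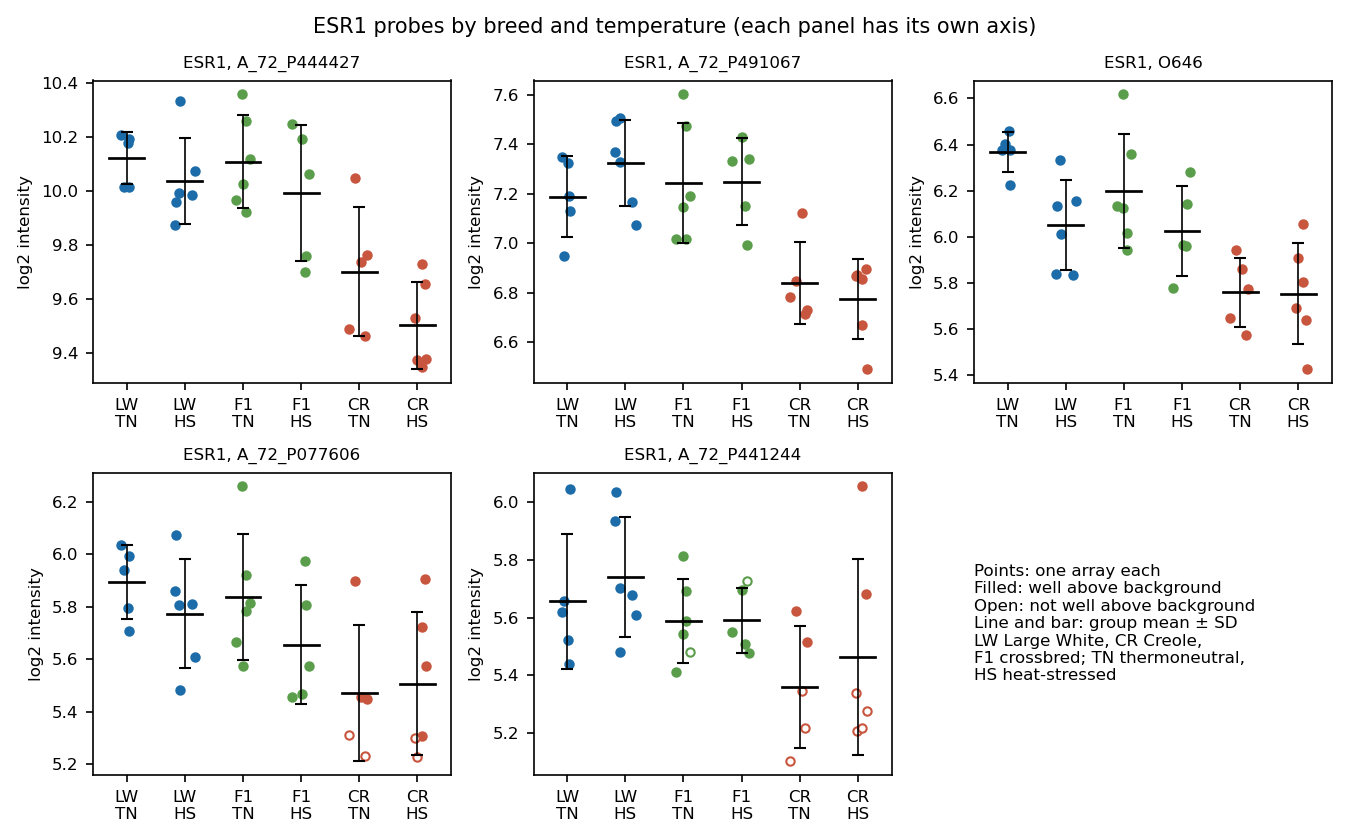
Log2 intensity of the 5 ESR1 probes (vertical axis, own scale in each panel) in the 6 breed-by-temperature groups (horizontal axis), 1 point for each array with the group mean and SD, open points not well above background. On A_72_P444427 the Creole arrays run from 9.35 to 10.05 and the LW arrays from 9.87 to 10.33.

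The breed difference of ESR1 had the same sign among the TN arrays and among the HS arrays. Both sets are parts of the arrays fitted above and may share litters, so they are not independent support. Among TN arrays the LW minus CR difference on the reference probe was 0.42 (SE 0.11, adjusted p = 0.0944), and among HS arrays it was 0.53 (SE 0.11, adjusted p = 0.015). The 4 A_72 probes had the same sign at both temperatures, from 0.30 to 0.42 at TN and from 0.27 to 0.55 under HS, and O646 gave 0.61 and 0.30. With fewer arrays the test called 0 of the A_72 probes at TN, where only O646 passed, and 2 under HS, A_72_P444427 and A_72_P491067. In these smaller comparisons 0.983% of all probes were called at TN and 2.25% under HS. Within each of the 5 slides the LW mean of the reference probe was above the Creole mean, by 0.14 to 0.83 with 1 to 3 arrays of each breed on a slide. On A_72_P441244 it was so on 4 of the 5 slides, and the fifth gave -0.04.

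F1 pigs had higher ESR1 than Creole pigs by 0.45 on the reference probe (SE 0.08, 1.37-fold, adjusted p = 0.000592), by 0.44 on A_72_P491067 (SE 0.08, 1.36-fold) and by 0.35 on O646 (SE 0.08, 1.27-fold). Thus 2 of the 4 A_72 probes of ESR1 and O646 passed, 3 of 13 member probes in all, against 6.86% of all probes in either direction and 3.48% higher in F1. The pair of overlapping probes gave 0.26 and 0.18 and did not pass. No member probe passed between F1 and LW, where 1.48% of all probes did, and the smallest adjusted p was 0.306. The F1 minus LW difference of ESR1 was -0.03 on the reference probe (95% interval -0.19 to 0.13) and lay between -0.11 and -0.01 over the A_72 probes, and at -0.09 on O646. Placed on a line from the Creole mean at 0 to the LW mean at 1, the F1 mean of ESR1 lay at 0.63 to 0.97 on the A_72 probes and at 0.79 on O646. Set beside the LW and CR midpoint, F1 gave 0 of 13 member probes past the threshold, and 2.88% of all probes passed. F1 exceeded that midpoint by 0.21 on both A_72_P444427 and A_72_P491067 (SE 0.07 for each), with a smallest adjusted p of 0.0765.

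Markers of other pituitary cells also differed between LW and Creole pigs, and their part in the ESR1 result was not tested. By the brightest probe of each gene, all 5 gonadotroph markers had higher means in LW, and 2 passed. These were GNRHR, the receptor of gonadotropin-releasing hormone, by 0.59 (SE 0.15, adjusted p = 0.0112), and NR5A1, a transcription factor of gonadotrophs, by 0.56 (SE 0.14, adjusted p = 0.0141). Both probes of GNRHR passed, and 1 of 3 of NR5A1, which ran from 0.19 to 0.56. FSHB, the beta subunit of follicle-stimulating hormone, passed on 1 of its 2 probes, which ran from 0.23 to 0.36, and not on the brightest. The log2 of the summed gonadotroph markers ran from 19.41 to 19.93 in LW, 19.48 to 19.86 in F1 and 19.25 to 19.69 in Creole pigs. Of the 5 endothelial markers 4 had higher means in LW and 2 passed, KDR by 0.94 (SE 0.14) and CDH5 by 0.41 (SE 0.13), each on 1 probe. The 3 probes of KDR ran from 0.10 to 0.94 and the 2 of CDH5 from 0.22 to 0.41. The log2 of their sum ran from 14.17 to 15.80 in LW and 14.02 to 15.30 in Creole pigs. Of the 3 lactotroph markers measured, TRHR and POU1F1 were lower in LW, with differences of -0.48 (SE 0.10) and -0.34 (SE 0.10), while PRL differed by -0.05 (SE 0.06, 95% interval -0.17 to 0.08, adjusted p = 0.788). Also lower in LW were GHRHR, the somatotroph receptor of growth hormone-releasing hormone (-0.40), NEUROD1, a transcription factor of corticotrophs (-0.58), and DIO2, the thyroid hormone deiodinase listed for thyrotrophs (-0.44). By sign alone, 3 of 3 somatotroph markers, 2 of 3 corticotroph markers and 2 of 3 thyrotroph markers were lower in LW. The hormone genes GH1, POMC and TSHB did not pass, and CGA was higher in LW on its 3 probes, by 0.03 to 0.07. CRHR1, listed for corticotrophs, passed on 1 of its 3 probes, which ran from -0.50 to -0.27. F1 pigs exceeded Creole pigs in GNRHR by 0.64, in NR5A1 by 0.46 (0.12 to 0.46 over 3 probes, 1 called) and in KDR by 0.59 (0.01 to 0.59 over 3 probes, 1 called), and FSHB again passed on 1 of 2 probes (0.26 to 0.39). They were lower in S100B, a folliculostellate marker (-0.39, with 1 of 2 probes called), and CSF1R, a macrophage receptor (-0.39). PECAM1, an endothelial marker, was lower in F1 and passed on 1 of 4 probes, not its brightest (-0.42 to -0.06). Between F1 and LW, DIO2 differed by 0.43, CDH5 by -0.47 and CSF1R by -0.42. There PTPRC, a leukocyte marker, passed on 1 of 3 probes, not its brightest (-0.33 to -0.08).

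Heat moved no member probe past the threshold. In the comparison of HS with TN over all breeds 0 of 13 member probes passed in limma, and 2 had an unadjusted p under 0.05. Over all probes 0.0219% passed and 8.77% had an unadjusted p under 0.05. The 2 probes were both ESR1 and both lower in HS, the reference probe at -0.13 (SE 0.06, 95% interval -0.26 to -0.01, adjusted p = 0.547) and O646 at -0.16 (SE 0.07, adjusted p = 0.462). On each of them 13 of the 17 HS arrays were below their own breed's TN mean. The other 3 ESR1 probes gave 0.03, 0.06 and -0.09, so the probes of this gene did not share a sign. All 4 measured blood markers and all 5 endothelial markers had lower means in HS, and their part in these values was not tested. HBB, the haemoglobin beta chain, passed at -1.15 (SE 0.21, adjusted p = 0.0301), and none of the others did. Without LW TN 2 and CR TN 1, 3 of the 4 blood markers and all 5 endothelial markers were lower in HS, and HBB gave -1.06 (SE 0.22, adjusted p = 0.112) and did not pass. The log2 of the summed blood markers ran from 11.79 to 13.07 in TN and 11.63 to 12.31 in HS, and that of the endothelial markers from 14.19 to 15.80 in TN and 13.93 to 14.92 in HS. The TN upper ends came from the same 2 arrays, and without them the sums ran up to 12.70 and 14.77 in TN.

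Within single breeds 0 of 13 member probes passed in LW, CR or F1 pigs, as 0% of all probes did, and 1, 1 and 0 of them had an unadjusted p under 0.05. These were O646 of ESR1 in LW pigs, at -0.32 (SE 0.12, adjusted p = 0.642), and GAL in Creole pigs. The interaction of breed and temperature gave 0 of 13 member probes and 0% of all probes, with no member at an unadjusted p under 0.05.

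**Figure D3:**
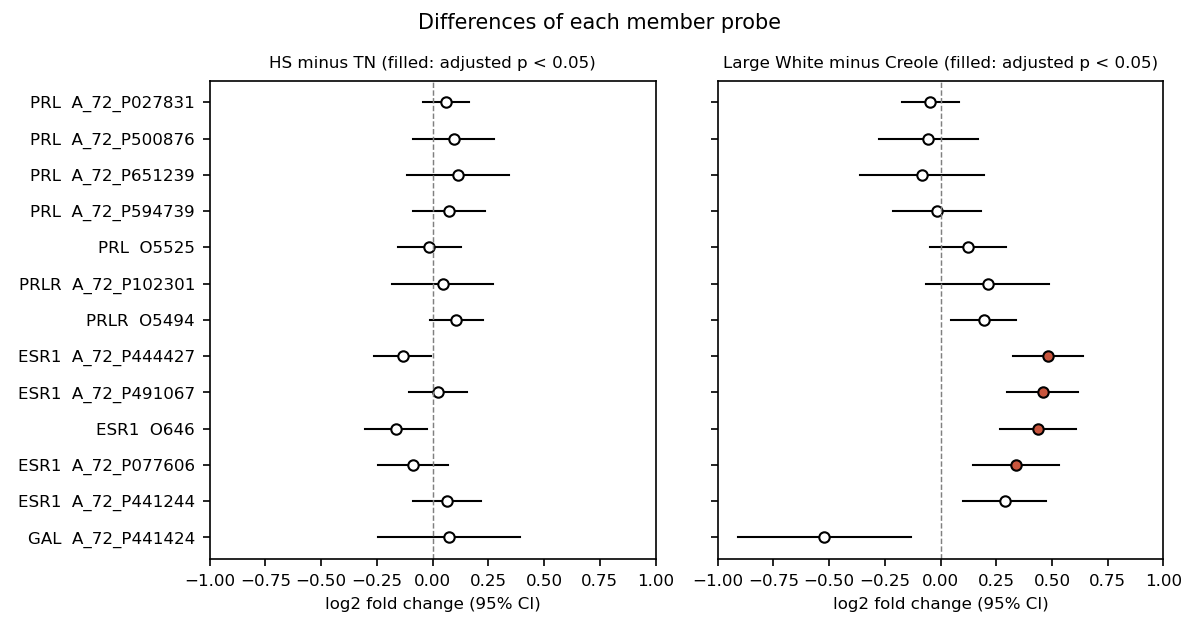
Log2 fold change with its 95% interval (horizontal axis) for each of the 13 member probes in the deposited table (vertical axis), HS minus TN on the left and Large White minus Creole on the right. Filled points have an adjusted p under 0.05, which is the case for 4 ESR1 probes on the right and for none on the left.

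GAL had its highest values in Creole pigs under heat, but the spread there was wide. The CR HS arrays ran from 5.03 to 7.67 with a median of 6.20, and the CR TN arrays read 5.39, 5.84, 5.86, 5.19 and 5.97. The LW TN arrays read 5.51, 5.24, 5.70, 5.75 and 5.42, and the LW HS arrays 5.10 to 5.66 with a median of 5.37. The F1 TN arrays read 5.39 to 6.01 with a median of 5.65, and the F1 HS arrays 6.12, 5.24, 5.33, 5.34 and 5.24. The groups overlapped, and both the highest and the lowest of the 33 values came from CR HS pigs. GAL was a dim probe, well above background on 22 of 33 arrays, which were 9 of 11 in Creole, 7 of 11 in LW and 6 of 11 in F1 pigs.

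The HS minus TN difference of GAL within Creole pigs was 0.58 (SE 0.26, limma adjusted p = 0.829). It was 0.29 without CR HS 4, the array at 7.67, and 0.82 without CR HS 6, the array at 5.03. Within LW it was -0.14 and within F1 -0.22 (SE 0.26 for each), and the interaction of breed and temperature gave an adjusted p of 0.926. Between breeds GAL was lower in LW than in Creole pigs, at -0.52 (SE 0.19, 95% interval -0.91 to -0.13, adjusted p = 0.103), a difference in the opposite direction to that of ESR1. It did not pass the threshold. It was -0.13 among TN arrays and -0.85 among HS arrays (adjusted p = 0.872 and 0.143). With all temperatures it was -0.35 without CR HS 4 and passed at -0.62 (adjusted p = 0.0358) without CR HS 6. F1 lay between the breeds, at -0.39 against Creole (SE 0.19) and 0.13 against LW (SE 0.19).

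PRLR varied widely between pigs, and no difference between groups passed the test in the main fit. On its reference probe, A_72_P102301, the LW TN arrays read 8.14, 7.20, 7.83, 7.64 and 8.20, and the CR TN arrays 6.71, 8.05, 7.85, 7.66 and 7.40. The F1 HS arrays read 7.77, 7.35, 7.73, 7.73 and 7.40. The LW HS arrays ran from 7.39 to 8.31, the CR HS arrays from 7.27 to 8.24 and the F1 TN arrays from 7.39 to 7.94. The lowest arrays, at 6.71 and 7.20, were CR TN 1 and LW TN 2, which stood apart in their markers too.

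PRLR in LW minus CR was 0.21 (SE 0.14, adjusted p = 0.444) on the reference probe and 0.19 (SE 0.07, 95% interval 0.05 to 0.34, adjusted p = 0.109) on O5494, and HS minus TN was 0.04 (SE 0.11) and 0.11 (SE 0.06). None of these passed. In LW minus CR the reference probe gave 0.12 without CR TN 1 and 0.27 without CR HS 4, neither past the threshold. O5494 in LW minus CR did pass at 0.23 (adjusted p = 0.0481) without LW HS 4, and at 0.20 (adjusted p = 0.0398) with array weights. O5494 was well above background on 24 of 33 arrays, including all 11 LW arrays and 5 of 11 Creole arrays. Its repeat, A_72_P077336, was so on 15 arrays and read 5.15 to 5.81 when recomputed from the scanner files, since it is not among the probes of the table. Over the 33 arrays r between these repeats was 0.39.

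**Figure D4:**
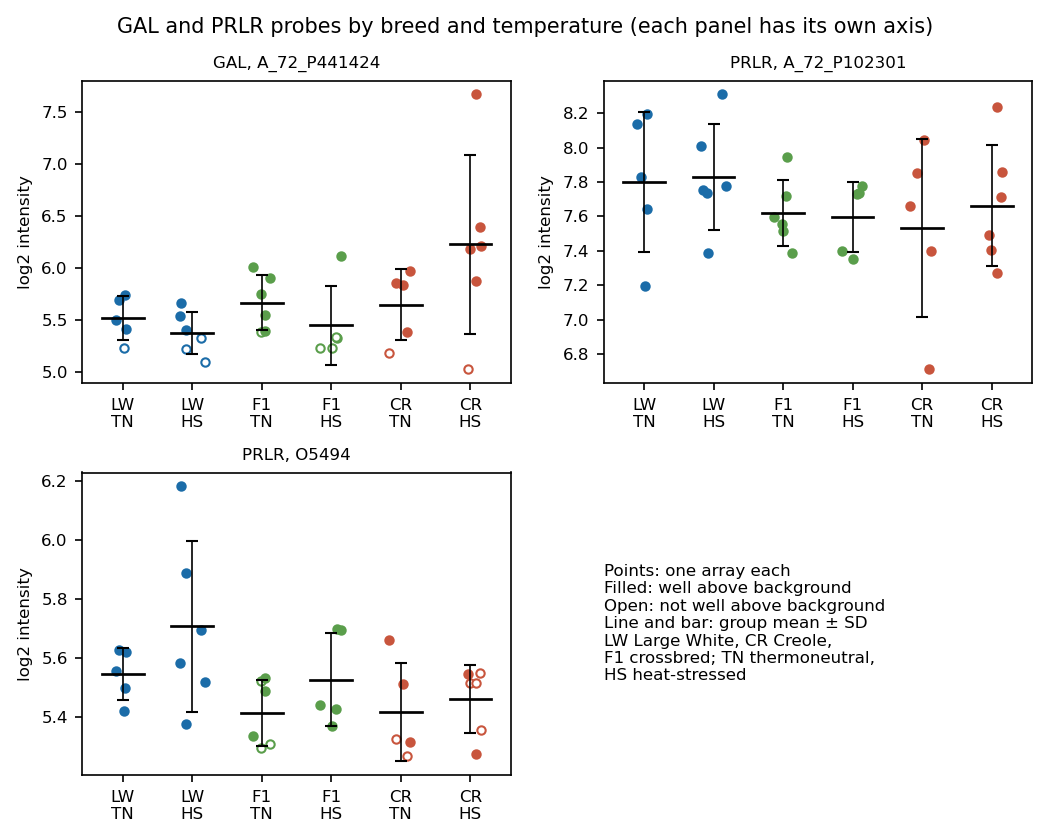
Log2 intensity of the GAL probe and of 2 PRLR probes (vertical axis, own scale in each panel) in the 6 breed-by-temperature groups (horizontal axis), 1 point for each array with the group mean and SD, open points not well above background. The highest GAL point, 7.67, is 1 CR HS array.

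Relations between the members, each by its reference probe, were computed over the 33 arrays with the group means removed, 7 in all with that of O5525. PRL and PRLR rose together, with r = 0.47 and rho = 0.48 (permutation p = 0.00637 and 0.00555, adjusted 0.0223 and 0.0194). Without LW TN 2 and LW TN 3 r was 0.38. The group means were not recomputed for this, nor for the other r without these 2 arrays. With slide means removed it was 0.27 (permutation p = 0.13), so it did not hold within slides. PRL and GAL gave r = 0.33 and rho = 0.51 (adjusted p = 0.122 and 0.0194), with r = 0.39 without the same 2 arrays and 0.19 within slides. ESR1 showed no detectable relation to PRL (r = 0.05, rho = 0.18, permutation p = 0.784 and 0.313), and r was 0.23 without the same 2 arrays. Neither PRLR with ESR1 (r = 0.07), PRLR with GAL (r = 0.39) nor ESR1 with GAL (r = 0.23) passed after adjustment.

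The genes of most similar pattern were sought among 9807 other genes with a symbol, by Pearson r over the 33 arrays on the brightest probe of each gene, as a description. For ESR1 the leading 5 were ODF3B (r = 0.81), THBS3 (0.78), GLB1L (0.77), CD55 (0.76) and GNRHR (0.75). With group means removed their r fell to between 0.20 and 0.51, so the likeness lay mostly in the group means. For PRL they were OGT and BRINP1 (0.82 for each), HTR2B (0.76), SUPV3L1 and FAM98A (0.75 for each), and r was 0.75 to 0.84 with group means removed. For PRLR, FAM136A, ELAVL2, NLK and NGRN were among them, with r from 0.75 to 0.81. For GAL they were LOC100526118 (0.76), MFSD2A (0.74), SCGN (0.71), SELENOM (0.68) and ARHGAP4 (0.67).

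Other genes of the prolactin pathway were read from 8 lists with 120 genes, of which 83 had a probe in the table, each by its brightest probe. In HS against TN 0 of 83 passed, and 13 of 83 had an unadjusted p under 0.05. Over all probes 8.77% had, a base not limited to the brightest probe of a gene, so the shares are not like for like. In LW against CR 4 were higher and 6 lower in LW, where 6.65% of all probes passed. Between F1 and CR 4 were higher and 3 lower in F1, where 6.86% of all probes passed, and between F1 and LW 2 were higher in F1, where 1.48% did. These counts rest on 1 probe for each gene. A further 5 genes in LW against CR and 7 in F1 against CR passed on 1 of their other probes and not on the brightest. In LW against CR these were THRB, FLNA, ADCY6, JAK2 and FGFR1, and in F1 against CR ADCY6, ARRB1, NSF, JAK2, MAOA, NRIP1 and TGFB3, all named after their values were seen. The median difference of all probes was 0.01 in HS against TN and -0.001 in LW against CR.

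Among activators of the PRL gene, 2 of 9 measured were lower in LW than in Creole pigs and none higher by the brightest probe. POU1F1, the pituitary factor required for lactotrophs, was lower, at -0.34 (SE 0.10, adjusted p = 0.0363), with all 4 of its probes of that sign. NR3C1, the glucocorticoid receptor, was lower, at -0.21 (SE 0.06, adjusted p = 0.0275), with all 4 of its probes of that sign and 2 called. On another probe THRB, a thyroid hormone receptor, was lower in LW, at -0.27 on 1 of 2. PITX1, a pituitary homeobox factor, was higher in F1 than in LW by 0.29 and than in CR by 0.24. The list's median was -0.05 in LW against CR and 0.11 in HS against TN. LHX3 had its smallest heat p and was 0.25 higher in HS (SE 0.07, adjusted p = 0.196).

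Of the measured genes of D2 receptor signalling, 3 of 19 were higher in LW than in Creole pigs and none lower by the brightest probe. On other probes FLNA, a filamin, was lower in LW at -0.40 on 1 of 3 and ADCY6, an adenylyl cyclase, was higher by 0.74 on 1 of 2. ADCY5, an adenylyl cyclase, was higher by 0.35 (SE 0.10, adjusted p = 0.0201). PRKACB, a catalytic subunit of protein kinase A, was higher by 0.42 (SE 0.12, adjusted p = 0.0301), while its other probe gave 0.06. ARRB2, an arrestin that binds activated receptors, was higher by 0.30 (SE 0.06, adjusted p = 0.00153) on its brightest probe, and 1 of its 3 probes had the other sign. ADCY5 and PRKACB were also higher in F1 than in Creole pigs, by 0.42 and 0.59, the latter with 0.008 on the other PRKACB probe. PRKAR1A, a regulatory subunit of protein kinase A, was higher in F1 than in Creole pigs by 0.19, with 2 of 5 probes called and 1 of the other sign at -0.09. On other probes F1 exceeded Creole pigs in ADCY6 by 0.65 and in NSF, a membrane fusion ATPase, by 0.25, and ARRB1, an arrestin, was lower at -0.34. The list's median was 0.05 in LW against CR and 0.09 in HS against TN. Its smallest heat p was that of PRKACA, a catalytic subunit of protein kinase A, at 0.11 (adjusted p = 0.386). The list of other dopamine receptors and enzymes had 4 of 11 genes measured, and none passed by the brightest probe. MAOA, an enzyme that breaks down dopamine, was lower in F1 than in Creole pigs on 1 of 5 probes, at -0.33.

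Of the releasing peptides and their receptors, 1 of 7 measured was higher in LW and 3 were lower than in Creole pigs. TRHR, the receptor of thyrotropin-releasing hormone, was lower, at -0.48 (SE 0.10, adjusted p = 0.00351). EDN3, an endothelin, was lower, at -0.54 (SE 0.12, adjusted p = 0.00257) and AGTR1, an angiotensin receptor, at -0.49 (SE 0.13, adjusted p = 0.013). EDNRA, an endothelin receptor, was higher by 0.39 (SE 0.08, adjusted p = 0.00239). The 2 probes of each of EDN3, AGTR1 and EDNRA shared the sign and all passed. EDN3 and AGTR1 were also lower in F1 than in Creole pigs, at -0.71 and -0.45. The list's median was -0.10 in LW against CR and -0.10 in HS against TN.

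Prolactin receptor signalling showed no passing gene among 12 measured in any of the 4 comparisons by the brightest probe. JAK2, the kinase bound to the receptor, passed on 1 of its 3 probes, higher by 0.39 in LW and by 0.44 in F1 than in Creole pigs, where its brightest probe gave 0.08 and 0.001. SOCS3, an inhibitor of JAK and STAT signalling, had the smallest heat p of this list and was lower in HS, at -0.43 (SE 0.13, adjusted p = 0.25), with 3 of 3 probes of that sign. Among partners and targets of the oestrogen receptor, 1 of 16 passed by the brightest probe, and NRIP1, a corepressor, was higher in F1 than in Creole pigs by 0.24 on 1 of 2 probes. FKBP4, a co-chaperone of steroid receptors, was lower in LW than in Creole pigs, at -0.28 (SE 0.06, adjusted p = 0.00148), with 1 of 3 probes called and all of that sign, and higher in F1 than in LW by 0.22. PTTG1, an oestrogen-responsive pituitary gene, had the smallest heat p of that list, at -0.40 (SE 0.10, adjusted p = 0.158), with both probes of that sign. Of 15 measured growth factor genes none passed between LW and CR by the brightest probe, FGFR1, a fibroblast growth factor receptor, was higher in LW by 0.36 on 1 of 4 probes, and EGF was lower in F1 than in Creole pigs, at -0.997 (adjusted p = 0.0128), as was TGFB3, a transforming growth factor, at -0.31 on 1 of 3 probes that was not its brightest. None of the galanin receptors was measured, and the galanin-like peptide GALP, the only measured gene of that list, did not pass.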

How the data were processed

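Scanner files, per the file headers, held pixel intensity of each spot and its background, as read by Agilent Feature Extraction 10.10.1.1. The authors deposited a quantile-normalised log2 matrix of the 45667 probes they kept, and no column lacked a sample. Recomputed from median pixel intensity without background correction, values differed from it by a median of 0.00376 log2 units and at most 0.177. Per the file headers, the remaining columns held gene names, sequences and quality marks of the spots.

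The main values were those of the deposited table. Models with breed and temperature, and with 1 mean for each group, were fitted to all 45667 probes by limma (version 3.58.1, under R 4.3.3). Files were read through data.table, version 1.17.8, and plots drawn by matplotlib 3.10.9 under Python 3.11.15. The fits used default eBayes, two-sided tests and Benjamini-Hochberg adjustment over all probes, and were tested on simulated data. Pen, slaughter day and parentage, which the study modelled as random effects, were not fitted. Littermates among the pigs of a breed could not be told from the labels used here and entered as independent animals. Correlations used 100000 permutations.

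Member probes and list genes (by the brightest probe, up to 4 passing genes for each list and comparison by smallest p, and otherwise the smallest heat p) were named by rule. Symbols came from the array design and from a pig gene table (Sscrofa11.1, names only), for 38.1% of probes. Members, lists and tests were chosen with earlier results of these data known. One gene that the rule on similar patterns picked is not reported here. Replicates are separate pigs, and the number of arrays limits precision. Alternatives covered background correction, scaling, a filter on dim probes, slide, array weights, variance moderation, the label of LW HS 3 and leaving out arrays.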

Additional observations from a re-analysis of the deposited data

Results flagged for a closer look

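Values that lay apart within a group of 5 or 6 arrays were sought for the 14 member probes in 6 groups by Dixon's ratio of the gap to the range. There were 6 such values in 84 sets, and chance gives about 1 in 20. The array LW TN 2 gave 4 of them, all on PRL, at 18.20 on A_72_P027831, 17.64 on A_72_P500876, 17.29 on A_72_P651239 and 17.65 on A_72_P594739. The nearest other LW TN values were 18.88, 18.86, 18.86 and 18.69. CR HS 6 read 8.25 on the PRL probe O5525, where the next CR HS array read 7.91. F1 HS 1 read 6.12 on GAL, where the next F1 HS array read 5.34, and it was the only F1 HS array well above background on that probe. The GAL value of 7.67 on CR HS 4 was not picked out by this ratio.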

How the results depend on the processing

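The call of 0 member probes in HS against TN was the same under 11 alternatives and with each of 33 arrays left out, as was that in F1 against LW, in the interaction and within breeds under 10 alternatives each. In LW against CR the count of 4 ran from 4 to 6 with single arrays left out and was 6 with array weights. The 6 without LW HS 4 and those with array weights were the 5 ESR1 probes and O5494 of PRLR (0.23 and 0.20), which passed in no other setting. The count was 1 among TN arrays and 2 among HS arrays, a split chosen after seeing the data that leaves 16 and 17 arrays. In F1 against CR the count of 3 ran from 3 to 4 with single arrays left out and was 0 among TN arrays and 0 among HS arrays. There A_72_P077606 passed too with the processed signal scaled to the 75th percentile (0.67, limma adjusted p = 0.019) and with array weights (0.27, adjusted p = 0.0452). Over the alternatives F1 minus CR ran from 0.22 to 0.66 on O646, 0.15 to 0.67 on A_72_P077606 and 0.10 to 0.70 on A_72_P441244. In F1 against the parental mean the count of 0 became 1 with normexp background correction and 2 with array weights, and ran from 0 to 2 with single arrays left out (2 without F1 HS 3, and 1 without each of CR TN 2, CR TN 3, F1 HS 4 and LW HS 4). The ESR1 reference probe kept its sign in LW against CR over the alternatives, from 0.42 among TN arrays to 0.53 among HS arrays. The mean over the 5 ESR1 probes gave 0.40. From normexp, the lowest, to the processed signal at the 75th percentile, the highest, A_72_P441244 ran from 0.15 to 0.84, A_72_P077606 from 0.22 to 0.87 and O646 from 0.27 to 0.74. A_72_P441244 passed under 5 of 11 of them. A_72_P077606 lost its call with LW HS 3 taken as Creole (0.31, adjusted p = 0.0721). Among all alternatives and single arrays left out, GAL in LW against CR passed only without CR HS 6 (-0.62, adjusted p = 0.0358), and it ran from -1.01 with that processed signal to -0.13 among TN arrays.

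Differences that turned sign were small and past no threshold. GAL in HS against TN was -0.14 with the processed signal scaled to the 75th percentile, -0.0313 with array weights and -0.031 without CR HS 4, and ran up to 0.135 with other single arrays left out. PRLR in HS against TN was -0.0723 with LW TN 2 and CR TN 1 left out together, -0.0219 without CR TN 1 and -0.001 without LW TN 2, and ran up to 0.0800 with other single arrays left out. PRL in LW against CR was 0.00561 with array weights, 0.00601 with LW TN 2 and CR TN 1 left out together and 0.0171 without LW TN 2, and ran down to -0.0625 with other single arrays left out. The cause was not tested. The 10 pathway genes called in LW against CR became 6 with LW HS 3 taken as Creole, 0 among TN arrays and 6 among HS arrays. Low signal over background limits the values of GAL, O5494, A_72_P077606 and A_72_P441244. No paired analysis was possible because the labels give the groups no shared replicate numbers. Slide, which the groups shared, was fitted as a block instead. The counts of member probes were as without it, other than 5 in LW against CR with slide as a random block, where A_72_P441244 passed too. Over all probes the calls in HS against TN were 10, and 92 with slide as a fixed block, 54 with slide as a random block, 24 with the processed signal, 18 with trend and robust moderation, 6 with array weights or without LW TN 2 and CR TN 1, and 4 with no breed term. With array weights F1 against LW gave 2576 instead of 674 and F1 against the parental mean 3264 instead of 1313. Slide as a random block gave 1019 in F1 against LW. LW HS 3 taken as Creole gave 1827 instead of 3039 in LW against CR and 449 in F1 against LW.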
